A study of Drosophila melanogaster with 18 samples.

Results

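The genes described here are the gustatory receptor (Gr) and ionotropic receptor (Ir) genes of Drosophila melanogaster, the receptors of taste, smell, humidity and temperature neurons outside the odorant receptor family. They were taken from the count files by symbol, as every symbol that starts with Gr or Ir and goes on with a digit, which gave 125 of 15682 gene symbols (63 Gr and 62 Ir). Of these, 22 lie on chromosome arm 2L, 34 on 2R, 25 on 3L, 27 on 3R and 17 on X in the BDGP6.54 annotation.

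The study fed RU486 (mifepristone), the drug that switches on the GeneSwitch form of Gal4, to 3 fly stocks and sequenced polyadenylated RNA in bulk, with 3 RU486 and 3 ethanol control samples per stock. Act88F-GS-Gal4 flies carry GeneSwitch under the promoter of the flight muscle actin gene Act88F and gave thoraces, w1118 flies carry no GeneSwitch and gave thoraces, and elav-GS-Gal4 flies carry it under the promoter of the neuronal gene elav and gave heads. RU486 flies received 100 µM RU486 in the food for 10 days, and control flies received the ethanol vehicle. All flies were adult males of 10 to 14 days, and the labels name no transgene under Gal4 control in any group. They do not say whether the samples of a group are separate cultures or how many flies each holds. The study's methods give biological triplicates as the rule for its experiments, without saying how the sequenced samples of a group were raised. The p-values measure the spread between these samples, and how much of it is technical is not known.

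Gr proteins are cation channels of taste neurons. Sugar receptors such as Gr5a and the Gr64 proteins, bitter receptors such as Gr33a and Gr66a, and the carbon dioxide pair Gr21a and Gr63a are named after what they detect. Ir proteins descend from ionotropic glutamate receptors. A tuning Ir, which sets what the neuron detects, assembles with a broadly expressed coreceptor, Ir25a, Ir8a, Ir76b or Ir93a, that the channel needs to reach the cilium and to conduct. These genes are active in small numbers of neurons, in the antenna, the mouthparts, the legs and the wing margin, so their RNA is a small share of a head or a thorax. In bulk RNA, fewer cells of a type and less RNA per cell cannot be told apart.

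Reads counted on genes ran between 34020840 and 96176923 per sample, so that 1 read was worth 0.0104 to 0.0294 CPM (the read count of a gene relative to the library total, here scaled by TMM, a factor that corrects for differences in RNA makeup). Most of the receptor genes were read at or near that limit. Some libraries carried RNA of other tissues. The summed level of 36 testis genes was 4594 and 1461 CPM in elav-GS head controls 1 and 2, against 209 CPM in head control 3 and 182 to 254 CPM in the RU486 heads, and 13 accessory gland genes showed the same split. In w1118 thoraces the testis sum was 167, 3350 and 1284 CPM with RU486 and 2146 to 4241 CPM in controls, against 179 to 306 CPM in all 6 Act88F-GS thoraces. Act88F-GS control 1 held 2404 CPM of 12 photoreceptor genes, against 157 to 299 CPM in the other 5 Act88F-GS samples. The neuronal markers (9 of 9) and photoreceptor markers (12 of 12) were higher in head than in thorax controls and the flight muscle markers (9 of 9) were lower, as the tissue labels say.

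A receptor gene was called detected in a group when it reached 0.1 CPM in all 3 of its samples. By that measure 29 of 125 genes were detected in Act88F-GS thoraces with RU486 and 25 in their controls, 39 in w1118 thoraces with RU486 and 44 in their controls, and 60 in elav-GS heads with RU486 and 35 in their controls. More genes of both families were detected in RU486 heads: 28 Gr and 32 Ir genes, against 18 Gr and 17 Ir genes in head controls. Detection was not counted over all genes, so whether other genes of low level gained as well was not tested. With every library thinned to the smallest total, 58 were detected in RU486 heads and 33 in head controls. In all, 73 genes were detected in at least 1 group and 52 in none. Detection in all 6 groups held for 17 genes: Gr10a, Gr28b, Gr32a, Gr59f, Gr61a, Gr63a, Gr64a, Gr64f, Gr66a, Ir21a, Ir25a, Ir31a, Ir40a, Ir41a, Ir62a, Ir68a and Ir76a. The list holds 1 of the 4 coreceptors, Ir25a. Another 24 genes were detected in 1 or both head groups and in no thorax group. Among them, the bitter receptors Gr39a and Gr93a were detected in both head groups. The carbon dioxide receptor Gr21a, the bitter receptors Gr8a and Gr47a and the acid receptor Ir64a were detected in RU486 heads alone. In thoraces and in no head group 12 were detected, among them Gr59e (in RU486 Act88F-GS thoraces alone), Gr94a, Ir52d and Ir92a. The threshold decided some of these: Ir92a had 0.0870, 0.358 and 0.188 CPM in RU486 heads.

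Not every count stands for its gene alone. The sugar receptor genes Gr64b, Gr64c, Gr64d and Gr64e had no read in any of the 18 samples, and in BDGP6.54 each shares 97.3% to 100% of its exon length with its partner on the same strand (Gr64b with Gr64c, Gr64d with Gr64e). HTSeq leaves out reads that fall on 2 genes, so their 0 says nothing of their expression. In BDGP6.54 Gr10a shares all of its exon length with the odorant receptor gene Or10a on the same strand, Gr2a 75.9% with futsch and Ir75d 90.7% with COX6AL2. Gr10a still had 10 to 138 reads in every sample. Overlaps in BDGP6.54 thus need not hold in the BDGP5.75 annotation of the counts, and how far these 3 counts are affected is not known. Ir62a lies inside Iml1 (CG12090 in the files) on the same strand, and its reads and those of that gene's unspliced RNA cannot be told apart. Gr94a lies inside p53, Ir100a inside CG42233, Gr39a inside Mondo and Ir85a inside Pif1A and Pif1B, all on the opposite strand. Ir85a shares 10.85% of its exon length with Pif1A and Pif1B. Gr5a shares 74.4% and Ir21a 79.4% of exon length with an antisense RNA gene (CR44958 and CR43609). The library kit marks strand, and whether the counting used it is not given in the sources used here, so reads of such pairs cannot be told apart.

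Without the drug, the head was dominated by 3 antennal tuning receptors. Per kb of exon, which allows levels of different genes to be compared, the head controls were led by Ir75a at 25.6 ± 4.71 CPM per kb and Ir75b at 24.9 ± 3.34, followed by Ir76a at 12.9 ± 1.70, Ir62a at 9.18 ± 1.18 and Ir68a at 1.97 ± 0.434 (SD, n = 3). Ir75a and Ir75b are acid-sensing receptors of the antenna that work with Ir8a, Ir76a is an amine receptor that works with Ir76b and Ir25a, and Ir68a is a receptor of moist air that works with Ir93a and Ir25a. Ir75a and Ir75b did not differ beyond their spread, and each stood above the next gene by more than both SDs.

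**Figure D1:**
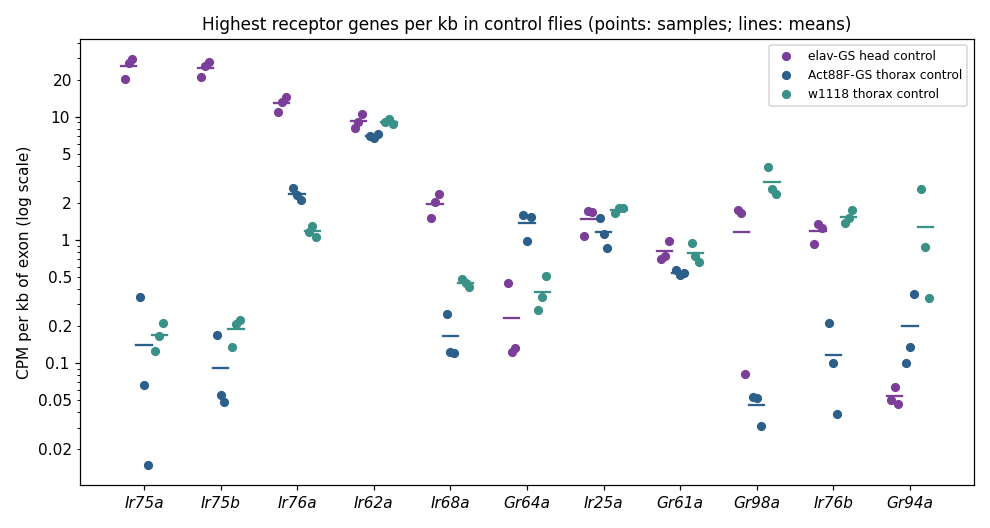
The plot gives CPM per kb of exon on a log axis in the 3 control groups for the 11 genes that are among the 5 highest in at least 1 of them, with a point per sample and a line at each mean. Ir75a and Ir75b stand at 25.6 and 24.9 CPM per kb in heads and below 0.5 CPM per kb in every thorax sample, while Ir62a lies close together in the 3 groups.

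Thorax controls had another order. In Act88F-GS controls Ir62a came first at 6.98 ± 0.268 CPM per kb, then Ir76a at 2.35 ± 0.274, the sugar receptor Gr64a at 1.37 ± 0.337, Ir25a at 1.16 ± 0.321 and the sugar receptor Gr61a at 0.540 ± 0.0282. In w1118 controls Ir62a again came first at 9.09 ± 0.450 CPM per kb, then Gr98a at 2.94 ± 0.819, Ir25a at 1.76 ± 0.0909, Ir76b at 1.54 ± 0.193 and Gr94a at 1.26 ± 1.17 (SD, n = 3). Gr64a and Ir25a in Act88F-GS controls, and Ir25a, Ir76b and Gr94a in w1118 controls, were within their spread of each other.

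The difference between elav-GS heads and the mean of both thorax stocks was tested in the 9 control samples with the quasi-likelihood test of edgeR. Stock, tissue and any difference in sequencing or processing between the groups cannot be told apart in it. Of 125 receptor genes, 49 passed the filter on low counts, 14 were higher in the head at an adjusted p under 0.05, against 31.8% of all genes tested, and 8 were lower, against 21.0%. Their share of higher calls was thus near the background (28.6% against 31.8%), and so was that of lower calls (16.3% against 21.0%). By role, 5 of 10 tested antennal tuning receptors, 3 of 6 bitter receptors and 2 of 4 coreceptors were higher, and 4 of 9 tested receptors of the IR20a clade, a group of taste receptors, were lower.

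Ir75b and Ir75a showed the widest differences. Ir75b had 38.5, 47.3 and 50.2 CPM in head controls, against 0.307, 0.0993 and 0.0883 CPM in Act88F-GS controls and 0.246, 0.375 and 0.410 CPM in w1118 controls (log2 difference 7.53, SE 0.38, edgeR adjusted p = 3.05e-06). Ir75a had 40.3, 54.1 and 58.1 CPM in head controls, against 0.676, 0.132 and 0.0295 CPM in Act88F-GS controls and 0.246, 0.329 and 0.421 CPM in w1118 controls (7.34, SE 0.70). The head samples lay above all thorax samples for both, and the highest Act88F-GS value of both was that of control 1, the sample with photoreceptor RNA. The bitter receptor Gr93a followed with 0.147, 0.389 and 0.382 CPM in head controls, against at most 0.0454 CPM in a thorax control (4.39, SE 0.88, adjusted p = 0.00384). Ir93a (3.19, SE 0.27) and the bitter coreceptor Gr33a (2.99, SE 0.63) were also higher in the head. The coreceptor Ir76b was called as well (1.46, SE 0.44, adjusted p = 0.0268), but not without head control 2 (1.35), Act88F-GS control 2 (1.41) or w1118 control 1, 2 or 3 (1.42, 1.45 and 1.51), and against w1118 thoraces alone its log2 difference was -0.38.

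Lower in the head were Ir52a, Ir52b and Ir52c, 3 neighbouring genes of the IR20a clade that are known from taste neurons of the legs, and Ir92a, an ammonia receptor of the antenna. Ir52a had 3 reads in all over the 3 head controls, against 177 over the 6 thorax controls of both stocks, a depth-scaled ratio of 0.0347 (95% exact interval 0.00709 to 0.103, counting error only), and Ir52b had 1 read, against 143 (0.0143, 0.00036 to 0.081). Most of these thorax reads came from w1118: Ir52a had 0.0246, 0 and 0.0141 CPM in head controls, against 0.0410, 0.0662 and 0 CPM in Act88F-GS controls and 0.582, 0.761 and 0.535 CPM in w1118 controls, so that heads and Act88F-GS thoraces overlapped. Ir52b had 0.0819, 0.232 and 0.0883 CPM in Act88F-GS controls and 0.424, 0.579 and 0.398 CPM in w1118 controls. Ir92a had 0.0123, 0 and 0.0566 CPM in head controls, against 0.295 to 0.491 CPM in Act88F-GS and 0.227 to 0.239 CPM in w1118 controls (log2 difference -3.49, SE 0.71, adjusted p = 0.00414). Gr94a (-3.20, SE 0.83) and Ir52c (-2.83, SE 0.63) were lower as well. The difference for Ir52a, Ir52b, Ir52c, Ir94c and Gr89a rests on the control flies, since in RU486 flies these genes had log2 differences between head and thorax of 0.28, 0.18, 0.62, 0.05 and 0.0022.

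The thorax stocks differed in receptor genes without the drug. Stock and any difference in sequencing or processing between the groups cannot be told apart in this comparison. Reads on genes were 34020840 to 53336753 in Act88F-GS controls and 82050098 to 96176923 in w1118 controls. Reads that fell on no gene were 12.8% to 15.2% and 8.10% to 9.01%. Of 49 tested, 23 were lower in Act88F-GS than in w1118 controls (46.9%, against 32.8% of all genes tested) and 4 were higher (8.16%, against 19.5%). The median log2 difference was -1.05 over the 49 receptor genes and -0.12 over all genes. The lower set held 3 of 4 coreceptors, 5 of 10 antennal tuning receptors, 4 of 9 tested IR20a-clade receptors, 2 of 5 sugar and 2 of 6 bitter receptors. Markers of other cells differed between the same stocks: 34 of 36 testis markers and 12 of 13 accessory gland markers were lower in Act88F-GS, and 7 of 9 flight muscle and 7 of 9 neuronal markers were higher. Of sensory cell genes, 4 of 6 mechanosensory organ markers were lower (median log2 difference of the 6 -1.48) and 1 was higher, and 5 of 14 tested genes of other taste and smell neurons were lower, among them ppk23 (-3.91), and 2 were higher. Their part in the result was not tested. Leaving out 1 control at a time left 11 to 18 lower calls: 12 without Act88F-GS control 2 or 3, 13 without w1118 control 1 and 11 without w1118 control 2 or 3. Higher calls were then 1 to 3: 1 without Act88F-GS control 1 or w1118 control 3, and 2 without Act88F-GS control 2 or w1118 control 1 or 2. The counts with a control left out are given without the share of all genes, and show only how the calls moved.

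Gr98a, for which no ligand is named here, differed most. It had 0.102, 0.0993 and 0.0589 CPM in Act88F-GS controls, against 7.43, 4.97 and 4.51 CPM in w1118 controls (log2 difference -5.98, SE 1.13, adjusted p = 0.00613). Ir100a had 0.0614, 0.0331 and 0.0295 CPM in Act88F-GS controls, against 0.572, 1.01 and 1.35 CPM in w1118 controls (-4.45, SE 1.32, adjusted p = 0.0273). The groups did not overlap for either gene. Ir52a had 0.0410, 0.0662 and 0 CPM in Act88F-GS controls, against 0.582, 0.761 and 0.535 CPM in w1118 controls (-4.07, SE 0.83), and Ir75c, an acid receptor, had 2 reads in Act88F-GS controls, against 74 in w1118 controls, a ratio of 0.0664 (95% exact interval 0.00789 to 0.248, counting error only). Higher in Act88F-GS were Gr43b (2.55, SE 0.83), Ir11a (2.28, SE 0.57), Gr64a (1.86, SE 0.59) and Ir76a (1.01, SE 0.14, 5.57, 4.90 and 4.42 CPM in Act88F-GS controls, against 2.46, 2.71 and 2.24 CPM in w1118 controls). Leaving out any 1 of the 6 controls kept the calls of Gr98a, Ir52a, Ir75c, Ir76b, Ir93a and Ir76a and ended those of Gr43b (2.23 to 3.06), Gr64a (1.67 to 2.18) and Ir8a (-1.45 to -1.09). Ir100a kept its call only without w1118 control 1, and Ir11a lost its own without Act88F-GS control 1 (1.77) or w1118 control 3 (2.39).

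In heads the genes Gr98a, Ir100a and Ir7c moved with the libraries that held male reproductive RNA. Gr98a had 0.152, 0.0895 and 0.0753 CPM in RU486 heads, against 3.35 and 3.16 CPM in head controls 1 and 2 and 0.156 CPM in head control 3. Ir100a had 0.0218, 0.104 and 0.0377 CPM in RU486 heads, against 1.02, 0.259 and 0.0141 CPM in head controls. Ir7c had 0.196, 0.224 and 0.170 CPM in RU486 heads, against 1.18, 0.519 and 0.198 CPM in head controls. In all 3, head control 3, which had little of that RNA, was at or near the level of the RU486 heads. The w1118 thorax with RU486 that held 167 CPM of testis genes, sample 1, had 0.146 CPM of Ir100a and 0.0929 CPM of Ir7c, the lowest of the 6 w1118 samples, but 3.25 CPM of Gr98a, close to the 3.95 CPM of sample 3. A difference between head groups thus moved with that RNA for these 3 genes. Between thorax stocks, Ir7c in w1118 RU486 sample 1 was within the 0.0167 to 0.0993 CPM of Act88F-GS thoraces. Ir100a in that sample was low for its stock but stayed above the 0.0295 to 0.0619 CPM of Act88F-GS thoraces. For Gr98a the difference between stocks remained in w1118 RU486 sample 1 as well, since Act88F-GS thoraces had 0.0167 to 0.140 CPM. The part of that RNA was not tested.

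**Figure D2:**
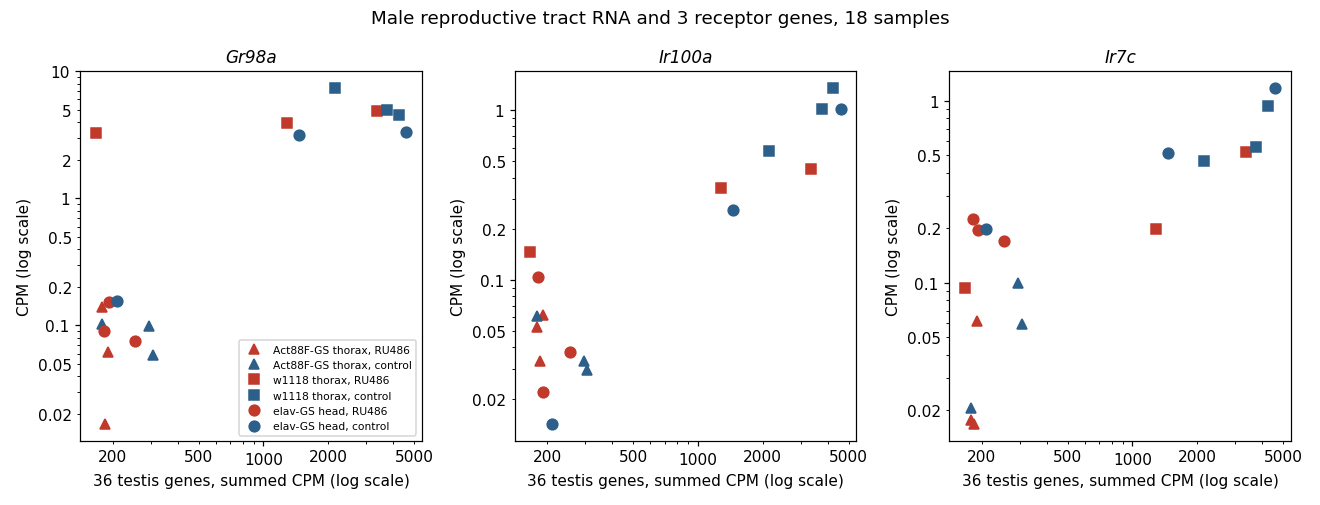
The CPM of Gr98a, Ir100a and Ir7c (log axes) is plotted against the summed CPM of 36 testis genes (log axis) for 18 samples, with colour for the drug and shape for stock and tissue. Gr98a lies above 3 CPM in the 7 samples with a testis sum of 1284 CPM or more and in 1 w1118 thorax with RU486 at a sum of 167 CPM, while Ir7c in 1 of the 7, at 0.197 CPM, is no higher than in RU486 heads.

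The coreceptors are given next, across the 6 groups. Ir25a, the most widely used of them, had 17.4, 20.9 and 18.6 CPM in RU486 heads, against 3.85, 6.12 and 6.01 CPM in head controls. It had 2.93, 5.20 and 13.5 CPM in Act88F-GS thoraces with RU486, against 5.39, 4.04 and 3.09 CPM in their controls. In w1118 thoraces it had 7.43, 7.14 and 6.77 CPM with RU486, against 5.92, 6.45 and 6.52 CPM in controls. Ir25a thus stood at about the same level in control heads (5.33 ± 1.28 CPM) and w1118 control thoraces (6.30 ± 0.326 CPM), and the RU486 heads lay above every other sample of the series (18.98 ± 1.78 CPM, SD, n = 3 in each).

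Ir76b serves amine, salt and amino acid receptors. Its level was 12.2, 14.1 and 11.8 CPM in RU486 heads, against 2.14, 3.11 and 2.90 CPM in head controls. Act88F-GS thoraces had 0.518, 0.333 and 0.929 CPM with RU486, against 0.491, 0.232 and 0.0883 CPM in controls, and w1118 thoraces had 3.70, 3.94 and 3.58 CPM with RU486, against 3.16, 3.45 and 4.04 CPM in controls. The Act88F-GS thoraces were the lowest group with either treatment, and no sample of theirs reached 1 CPM. Ir25a and Ir76b were alike in level per kb in RU486 heads (5.29 ± 0.495 and 5.50 ± 0.546 CPM per kb) but not in Act88F-GS controls (1.16 ± 0.321 and 0.117 ± 0.0885 CPM per kb).

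Ir8a, the partner of acid receptors, and Ir93a, that of receptors of cooling and humidity, were far lower than Ir25a. Ir8a had 0.522, 1.33 and 0.716 CPM in RU486 heads, against 0.135, 0.182 and 0.226 CPM in head controls. Ir93a had 1.07, 1.25 and 1.13 CPM in RU486 heads, against 1.08, 1.58 and 1.34 CPM in head controls. Head groups did not overlap for Ir8a and overlapped for Ir93a. In thoraces Ir8a stayed between 0.0669 and 0.496 CPM and Ir93a between 0.0614 and 0.307 CPM in the 12 samples, so the 4 coreceptors did not share 1 profile over the groups.

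**Figure D3:**
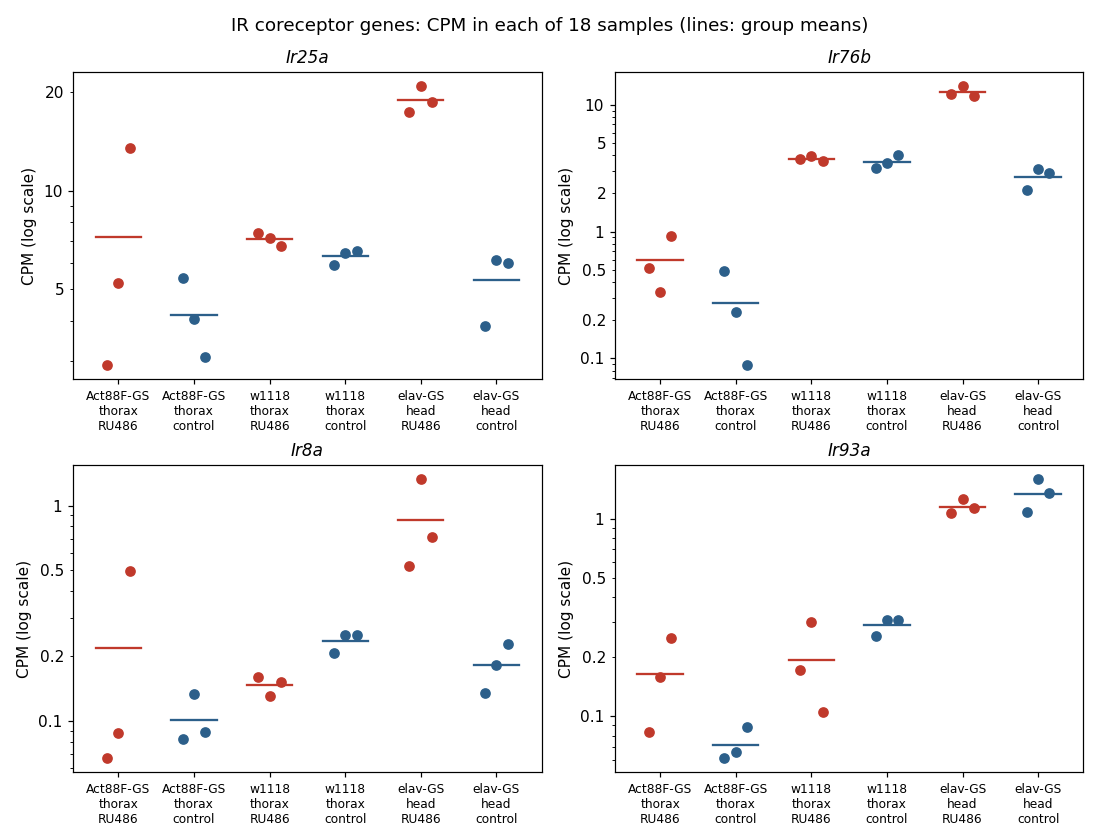
CPM of the 4 coreceptor genes is plotted on log axes in each of the 18 samples, RU486 in red and control in blue, with lines at group means. Ir25a and Ir76b in RU486 heads lie above every other sample (17.4 to 20.9 and 11.8 to 14.1 CPM), Ir8a shows the same order in the head, and for Ir93a the head groups overlap at 1.07 to 1.58 CPM.

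The question in elav-GS heads was what RU486 changes in a stock with GeneSwitch in neurons. Of 125 receptor genes, 47 passed the filter, and 15 rose at an adjusted p under 0.05 (31.9%, against 5.0% of all 10653 genes tested) while 1 fell (2.13%, against 0.779%). At an unadjusted p under 0.05 the counts were 26 and 1. The median log2 fold change of the 47 was 1.14, and that of all genes 0.00. A gene that is low in controls can pass the filter through its RU486 samples alone, so these counts describe the tested genes and not the family. In 27 of the 47 every RU486 head lay above every control head (10.6% of all genes tested did so), and in 2 the reverse held (11.4%).

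The rise took in 3 of 4 coreceptors, 3 of 7 tested bitter receptors, 2 of 5 sugar receptors, 3 of 9 antennal tuning receptors, 3 of 8 IR20a-clade receptors and 1 of 8 other Gr genes, and none of the tested carbon dioxide (2) or Gr28 genes (1). Ir76b rose by a log2 fold change of 2.28 (SE 0.12, edgeR adjusted p = 0.00390), Ir25a by 1.90 (SE 0.14, adjusted p = 0.00468) and Ir8a by 2.29 (SE 0.44, adjusted p = 0.0427). Ir93a had a log2 fold change of -0.16 (SE 0.18, adjusted p = 0.641).

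Among bitter receptors, Gr33a, a coreceptor of bitter neurons, had 2.46, 2.37 and 2.13 CPM in RU486 heads, against 0.331, 0.519 and 0.410 CPM in head controls (log2 fold change 2.52, SE 0.20, adjusted p = 0.00468). Gr66a, the common marker of bitter neurons, had 2.00, 2.58 and 2.13 CPM with RU486, against 0.675, 1.01 and 0.990 CPM in controls (1.39, SE 0.20, adjusted p = 0.0199). Gr39a had 0.652, 0.731 and 0.716 CPM with RU486, against 0.160, 0.182 and 0.141 CPM in controls (2.15, SE 0.25, adjusted p = 0.0109). All 3 had RU486 heads of close level and no overlap with controls. Gr32a, another bitter coreceptor, had no overlap either (2.15, 1.91 and 1.58 CPM in RU486 heads, against 0.651, 1.22 and 1.09 CPM in head controls) and missed the threshold (1.0, SE 0.25, adjusted p = 0.0825). The summed level of the 11 bitter receptor genes was 9.42, 9.40 and 8.76 CPM in RU486 heads, against 2.34, 4.02 and 3.48 CPM in controls.

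Sugar receptors were split. Gr5a, the trehalose receptor, had 0.783, 0.582 and 0.546 CPM in RU486 heads, against 0.184, 0.208 and 0.184 CPM in head controls (1.76, SE 0.27, adjusted p = 0.0231, with the antisense RNA gene noted above), and Gr64f, a coreceptor of sugar receptors, rose as well (1.57, SE 0.27, adjusted p = 0.0298). Gr61a had 1.65, 1.58 and 1.26 CPM with RU486, against 1.31, 1.38 and 1.82 CPM in controls (0.04, SE 0.21), and Gr64a and the fructose receptor Gr43a were not called (0.08 and 0.73). The groups overlapped for Gr61a and for Gr64a and Gr43a. The carbon dioxide receptors had RU486 heads above controls, Gr21a with 0.261, 0.403 and 0.414 CPM, against 0.0123, 0 and 0.127 CPM in controls, and Gr63a with 0.370, 0.880 and 0.603 CPM, against 0.246, 0.285 and 0.255 CPM in controls, but neither passed the test (adjusted p = 0.149 and 0.127).

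The antennal tuning receptors held both the highest genes of the head and some of the rising ones. Ir31a had 1.70, 2.51 and 1.62 CPM in RU486 heads, against 0.381, 0.648 and 0.410 CPM in head controls (2.09, SE 0.29, adjusted p = 0.0183). Ir40a, a receptor of dry air, had 1.78, 3.18 and 2.34 CPM with RU486, against 0.540, 0.493 and 0.735 CPM in controls (2.08, SE 0.31, adjusted p = 0.0205), and Ir21a, a receptor of cooling, rose by 1.25 (SE 0.20, adjusted p = 0.0239, likewise with an antisense RNA gene over most of its exons). The 4 highest did not follow. Ir75a had 42.8, 40.2 and 47.7 CPM in RU486 heads, against 40.3, 54.1 and 58.1 CPM in head controls (-0.17, SE 0.10, adjusted p = 0.384), and Ir75b had 39.1, 38.5 and 41.3 CPM, against 38.5, 47.3 and 50.2 CPM (-0.14, SE 0.06, adjusted p = 0.237). Ir76a (0.13, SE 0.06) and Ir68a (-0.0022, SE 0.14) were not called either, and the groups overlapped in all 4. Ir8a, the coreceptor for Ir75a and Ir75b, thus rose beside tuning receptors that did not pass the test.

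**Figure D4:**
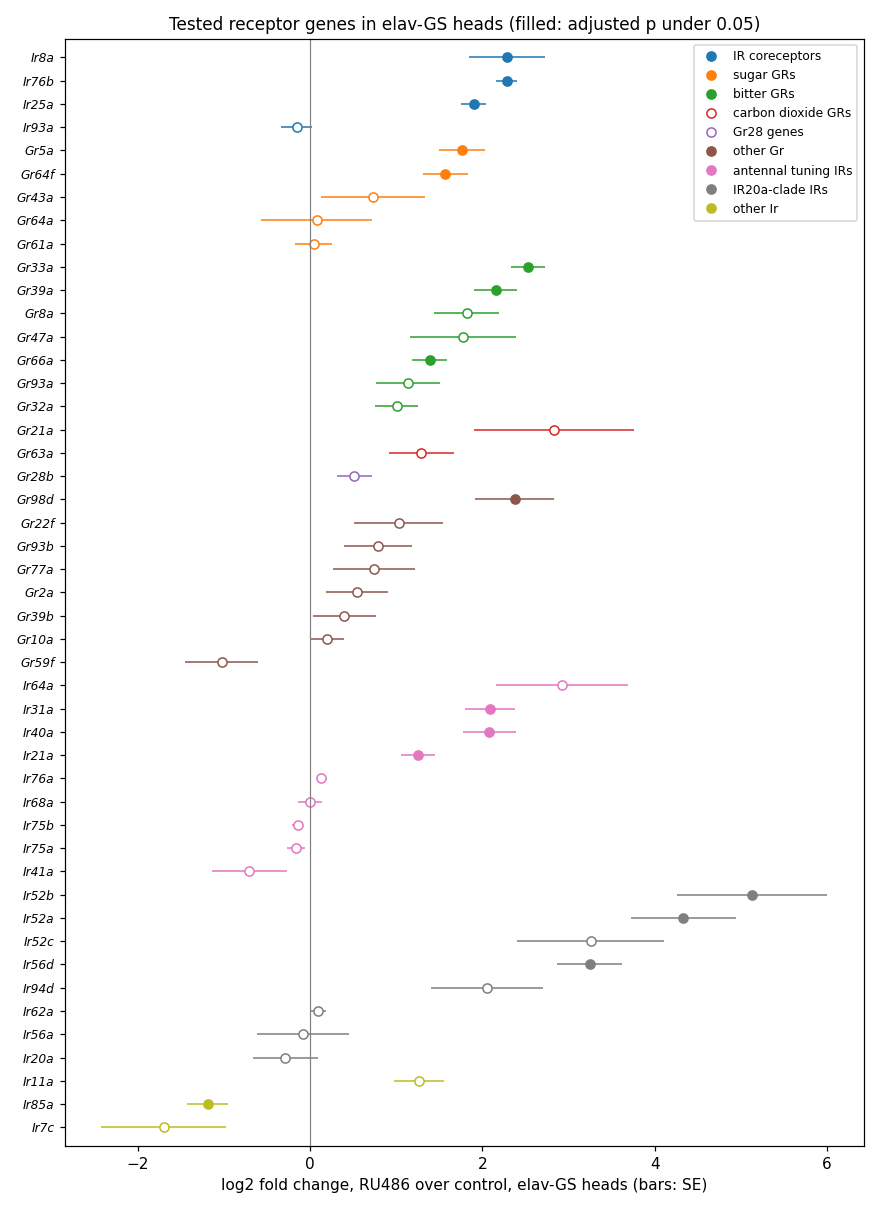
Log2 fold changes (RU486 over control, bars are SE) of the 47 tested receptor genes in elav-GS heads are drawn by role, filled where the adjusted p is under 0.05. The filled points are the 15 genes that rose, from 1.25 for Ir21a upward, and Ir85a at -1.19, while Ir76a, Ir68a, Ir75b, Ir75a and Ir93a lie at 0.13 to -0.17.

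In the IR20a clade, Ir52a had 58 reads over the RU486 heads, against 3 over the controls, a depth-scaled ratio of 22.2 (95% exact interval 7.23 to 111, counting error only), and Ir52b 44 reads, against 1 (50.5, 8.61 to 2040). Ir56d, a taste receptor of the labellum that responds to fatty acids and carbonation, had 0.783, 0.597 and 0.546 CPM in RU486 heads, against 0.0491, 0.0519 and 0.0990 CPM in head controls (3.24, SE 0.38, adjusted p = 0.0110). Ir52a and Ir52b were thus near the limit of counting in the control heads. Ir52c, next to them, had 0.370, 0.776 and 0.188 CPM in RU486 heads, against 0.0859, 0.0259 and 0.0141 CPM in head controls and was not called (3.25, SE 0.86, adjusted p = 0.0984). In w1118 thoraces Ir52a had 1.06, 0.479 and 0.650 CPM with RU486, against 0.582, 0.761 and 0.535 CPM in controls, each above every head sample. Gr98d also rose (2.38, SE 0.46, adjusted p = 0.0427). The gene that fell was Ir85a, with 0.305, 0.313 and 0.264 CPM in RU486 heads, against 0.663, 0.804 and 0.622 CPM in controls (-1.19, SE 0.23, adjusted p = 0.0455). Ir85a lies inside Pif1A and Pif1B, as noted above.

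The calls in heads changed with the samples and with the filter. Without a filter on low counts 3 receptor genes rose, and with a minimum mean of 10 counts 4 did. Without RU486 head 1 or without RU486 head 3 none of the 47 passed, with 2 rises left without RU486 head 2, 6 without control head 1, 3 without control head 2 and 20 without control head 3. The fall of Ir85a was lost in each of the 6 settings (log2 fold change -1.26 to -1.12). Leaving out 1 sample, the log2 fold change of Ir76b lay between 2.19 and 2.35 (adjusted p up to 0.104), that of Ir25a between 1.76 and 2.00 (adjusted p up to 0.104), and that of Gr33a between 2.44 and 2.61. It moved more for Ir8a (1.81 to 2.58), Ir52a (3.96 to 5.05) and Ir52b (4.56 to 7.04). DESeq2 called 19 receptor genes higher and 1 lower, limma voom 13 and 0, and the unequal-variance test on log2(CPM + 1) none. With a replicate block 4 receptor genes rose. The counts in these alternatives are given without the share of all genes, and show only how the calls moved.

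Genes of other sensory cells moved with the receptor genes in the RU486 heads. The 3 antenna support markers in the files, of 10 listed, were all called higher (lush, Os-C and Obp59a, with a summed level of 58.2, 125 and 81.1 CPM in RU486 heads, against 9.52, 11.2 and 17.9 CPM in head controls). Of 6 mechanosensory organ markers 4 were higher, with a sum of 49.2, 73.1 and 51.8 CPM in RU486 heads, against 16.0, 15.5 and 15.2 CPM. Of 14 tested genes of other taste and smell neurons, 5 rose, namely the odorant coreceptor gene Orco (2.64), the pheromone channel gene ppk23 (3.97), the mouthpart selector gene pb (1.67), Snmp1 (1.34) and Snmp2 (1.24). The general markers did not: 0 of 9 neuronal and 0 of 12 photoreceptor markers were called, with medians of 0.18 and -0.15. Midgut markers went the other way, with 2 of 4 tested called lower (median log2 fold change -3.18) and a sum of 64.6, 86.1 and 98.6 CPM in RU486 heads, against 1860, 951 and 236 CPM in head controls. The part of these genes in the receptor result was not tested.

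In Act88F-GS thoraces 26 receptor genes were tested. At an adjusted p under 0.05, 3 rose (11.5%, against 12.6% of all 10600 genes tested) and none fell (against 19.9%). At an unadjusted p under 0.05, 6 rose and 1 fell, against 2031 and 2632 of all 10600 genes. The median log2 fold change was 0.31, against 0.01 over all genes. In 7 of 26 every RU486 sample lay above every control (29.8% of all genes tested), and in 1, Ir62a, below (22.1%). The shares of rises and of genes that did not overlap were thus no higher than the background.

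The 3 were Gr63a, Gr59e and Gr94a, and the first varied strongly between samples. Gr63a, which with Gr21a forms the carbon dioxide receptor of the antenna, had 1.12, 4.89 and 23.5 CPM in RU486 thoraces, against 0.840, 0.265 and 0.324 CPM in controls (log2 fold change 4.21, SE 1.21, adjusted p = 0.0404). Gr59e had 0.635, 1.38 and 4.21 CPM with RU486, against 0.0819, 0.199 and 0.147 CPM in controls (3.80, SE 0.86, adjusted p = 0.0185). RU486 sample 3 was the highest for both and sample 1 the lowest. Gr94a had 1.0, 1.40 and 0.960 CPM with RU486, against 0.123, 0.166 and 0.442 CPM in controls (2.15, SE 0.49, adjusted p = 0.0176). Gr21a, the partner of Gr63a, was not tested for lack of reads, with 0.0167, 0.0876 and 0.0619 CPM in RU486 thoraces, against 0.123, 0.0331 and 0.0295 CPM in controls.

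RU486 sample 3 stood apart in other receptor genes and in muscle genes as well. It had the highest Ir25a, Ir8a, Ir76b, Ir93a and Gr66a of the 3 RU486 samples (for Ir25a 13.5 CPM, against 2.93 and 5.20 CPM). The summed level of 9 flight muscle markers was 11350, 13660 and 24790 CPM in the RU486 samples, against 28020 to 29030 CPM in controls. Some markers of other cells were called higher in the RU486 group, where 12.6% of all genes tested were. Both tested antenna support genes were (Os-C 2.82 and lush 0.79). The sum of their list was 12.2, 6.69 and 12.1 CPM with RU486, against 4.57, 4.21 and 3.65 CPM in controls. So were 3 of 13 tested genes of other taste and smell neurons, 1 of 6 mechanosensory organ, 1 of 11 testis, 4 of 11 midgut and 2 of 6 fat body markers. Of neuronal markers 0 of 9 were called, and of photoreceptor markers 0 of 12 (medians 0.18 and -2.56). Some genes near the rising receptors were read in the same samples. CG14980, close to Gr63a on the same strand, had 19.3, 22.4 and 45.1 CPM with RU486, against 16.5, 15.9 and 15.4 CPM in controls (0.78, adjusted p = 0.115), and CG30181, the neighbour of Gr59e on its strand, had 0.74, 0.81 and 3.13 CPM, against 0.18, 0 and 0.09 CPM (3.81, adjusted p = 0.0268). The host gene of Gr94a, p53, had 16.6, 15.6 and 13.4 CPM, against 12, 12.7 and 11.7 CPM (0.24, adjusted p = 0.0866). CG14977, read beside these genes, went the other way. It had 20.4, 18.1 and 17.0 CPM with RU486, against 29.4, 25.0 and 24.3 CPM in controls (-0.58, edgeR adjusted p = 0.00611). What part these have in the receptor values was not tested.

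No call among the 3 held under every sample left out. Gr59e was lost without control 1, 2 or 3 (log2 fold change 3.47, 4.10 and 3.85, adjusted p = 0.0631, 0.0559 and 0.0673). Gr63a was lost without RU486 sample 2 or 3 (4.55 and 2.52) and without control 1, 2 or 3 (4.95, 3.95 and 3.99), and Gr94a without RU486 sample 2 (1.95) or control 2 (1.96). The number of rises was 1 without RU486 sample 2, 0 without control 2 and 1 without control 3. Among the coreceptors, Ir25a had a log2 fold change of 0.70 (SE 0.57, adjusted p = 0.380), which was -0.12 without RU486 sample 3, and Ir76b one of 0.95 (SE 0.64, adjusted p = 0.294). Ir8a and Ir93a were not tested there.

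**Figure D5:**
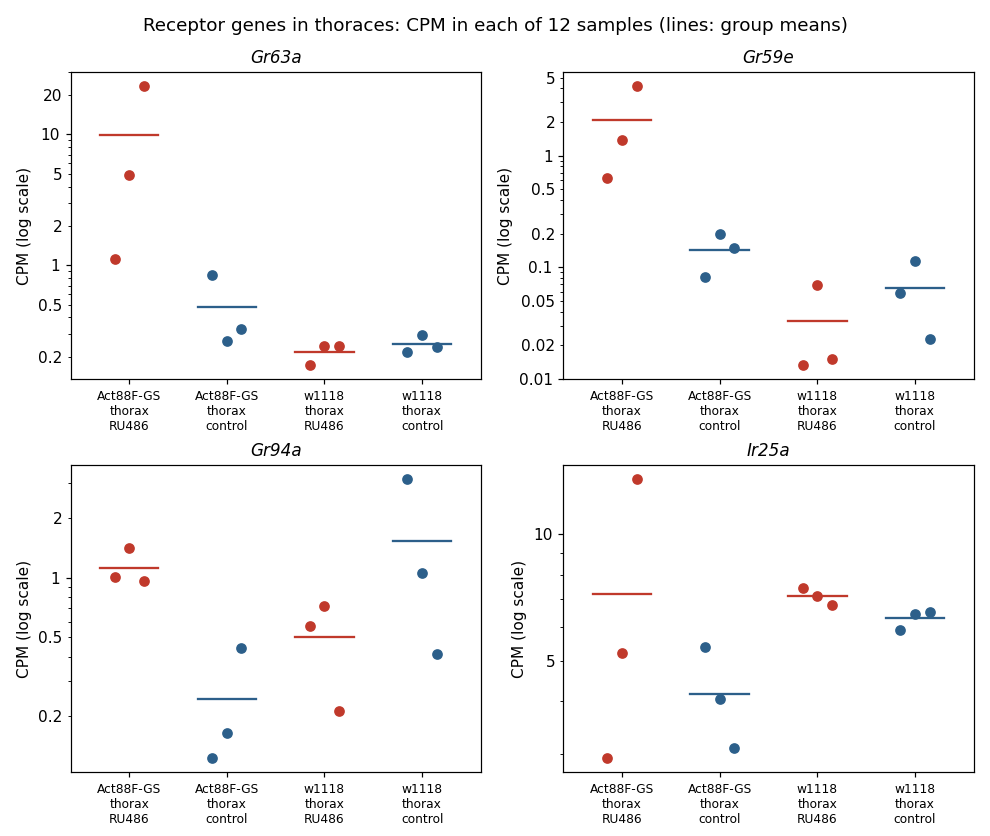
CPM of Gr63a, Gr59e, Gr94a and Ir25a is plotted on log axes in each of the 12 thorax samples, RU486 in red and control in blue, with lines at group means. In Act88F-GS thoraces Gr63a and Gr59e spread over 1.12 to 23.5 and 0.635 to 4.21 CPM with RU486, and Gr94a lies at 0.960 to 1.40 CPM, each above its controls. The w1118 groups overlap for these 3 genes, and for Ir25a they do not (6.77 to 7.43 CPM with RU486 and 5.92 to 6.52 CPM in controls).

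In w1118 thoraces, which carry no GeneSwitch, 46 receptor genes were tested. None rose and none fell in edgeR at an adjusted p under 0.05 (0% of all 12980 genes tested in either direction). At an unadjusted p under 0.05, 1 was higher and 4 lower, against 665 and 529 of all 12980 genes. DESeq2, limma voom and the unequal-variance test also called no receptor gene. The lowest adjusted p of the 46 was 0.539, and the median log2 fold change -0.13, against -0.02 over all genes. Every RU486 sample lay above every control in 5 genes and below in 6 (9.65% and 10.1% of all genes tested). The biological coefficient of variation was 40.7%, against 18.3% in Act88F-GS thoraces and 30.5% in heads, which limits what could be called here.

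The coreceptors had log2 fold changes of 0.18 for Ir25a (SE 0.10, adjusted p = 0.586), 0.07 for Ir76b (SE 0.16, adjusted p = 0.846), -0.68 for Ir8a (SE 0.23, adjusted p = 0.539) and -0.57 for Ir93a (SE 0.41, adjusted p = 0.633). Ir8a had 0.159, 0.130 and 0.151 CPM in RU486 thoraces, against 0.207, 0.250 and 0.250 CPM in controls, with no overlap. Gr63a and Gr94a, which rose in the other stock, had 0.173, 0.240 and 0.242 CPM and 0.571, 0.719 and 0.212 CPM with RU486, against 0.217, 0.295 and 0.239 CPM and 3.13, 1.06 and 0.410 CPM in controls.

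Whether the response to RU486 differed between stocks was tested in its own right, as the Act88F-GS change minus the w1118 change in the 12 thorax samples. Of 48 receptor genes tested, 3 were higher (6.25%, against 4.29% of all 13019 genes) and 1 was lower (2.08%, against 11.9%). Gr59e (log2 difference 4.65, SE 1.28, adjusted p = 0.0350), Gr63a (4.46, SE 1.30, adjusted p = 0.0445) and Gr94a (3.71, SE 1.08, adjusted p = 0.0447) were higher, and Ir62a, which lies within Iml1, was lower (-0.46, SE 0.09, adjusted p = 0.00817). The 3 higher calls dropped to 0 or 1 on leaving out 1 of 10 of the 12 samples: to 1 without Act88F-GS control 1 or 3 or w1118 RU486 sample 2, and to 0 without Act88F-GS RU486 sample 2 or 3, Act88F-GS control 2, w1118 control 1 or 2 or w1118 RU486 sample 1 or 3. No coreceptor was called (Ir93a 1.61, Ir8a 1.61, Ir76b 0.92 and Ir25a 0.53, adjusted p from 0.156 to 0.641).

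The same kind of test was made for heads, as the change in elav-GS heads minus the mean change of both thorax stocks, chosen after the values had been seen. It shares all its samples with the comparisons above. Of 64 receptor genes tested, 9 were higher (14.1%, against 5.98% of all 13235 genes) and 1 was lower (1.56%, against 10.4%). The higher ones were Ir52a, Ir52b, Ir52c and Ir94c of the IR20a clade, the tuning receptors Ir31a, Ir40a and Ir92a, the bitter receptor Gr89a and the sugar receptor Gr5a, with log2 differences of 1.39 to 5.18, and the lower one was Gr98a. The coreceptors Ir25a (1.35, SE 0.49, adjusted p = 0.0729), Ir76b (1.64, SE 0.54, adjusted p = 0.0515) and Ir8a (2.05, SE 0.75, adjusted p = 0.0758) missed the threshold, so a difference between head and thorax responses was not established for these 3. Without Act88F-GS RU486 sample 3, Ir25a, Ir8a and Ir76b passed (1.76, 2.75 and 1.87), and Ir76b also passed without Act88F-GS control 3 (1.85) or head control 3 (1.71). Of the higher genes, Gr5a and Ir31a lost their call in 17 of 26 alternatives each, Ir92a in 15 and Ir40a in 7, and Ir52b kept it in all 26. The count of 9 was 5 without head control 1 or 2 or RU486 head 3 and 4 without RU486 head 2. Gr98a was not called without head control 1 or 2, any of the RU486 heads or Act88F-GS RU486 sample 2, and 2 genes were lower without head control 3.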

How the data were processed

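The deposited files hold whole-number read counts per gene for 18 samples, made by the authors from stranded polyadenylated RNA libraries with the BDGP5.75 annotation (dm3). The submitters' processing notes name BWA, STAR and HTSeq, with versions not given in the sources used here. The head samples list 0 unaligned reads and the thorax samples do not. Rows that name no gene (no feature 6.53% to 15.2%, ambiguous 2.63% to 3.92%) were left out of library sizes and tests.

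The main test was the quasi-likelihood test of edgeR 4.0.16 in R 4.3.3, after filterByExpr and TMM scaling, with Benjamini-Hochberg adjustment over all genes tested and a threshold of 0.05, where the study had used an unequal-variance test on log FPKM. Alternatives used DESeq2 1.42.0, limma 3.58.1 (voom) and other scalings, filters and samples. Scripts were tested on simulated data. Exact intervals have a level of 95% and cover counting error only. BDGP6.54 served for names, chromosome arms, exon lengths, overlaps and neighbours, all 125 symbols matched (3 by a synonym), and no coordinates or sequences are printed.

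Genes were named by rule: the coreceptors everywhere, up to 10 called receptor genes per RU486 comparison by smallest p, the 5 highest per kb in each control group, the 5 largest differences each way between control groups, and any detected or tested receptor gene with its level. Members, lists and rule were chosen with earlier results of these data known. Replicate numbers in the titles were checked for pairing. Deviations of same-numbered samples correlated at 0.354 to 0.614 in w1118 thoraces, -0.167 to 0.031 in Act88F-GS thoraces and 0.0046 to 0.0481 in elav-GS heads. Differently numbered w1118 samples correlated at -0.640 to 0.469, which overlaps, so pairing by number was not established in w1118 either. The main tests used no replicate block.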

Additional observations from a re-analysis of the deposited data

Results flagged for a closer look

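In thoraces the response to RU486 differed between the Act88F-GS and w1118 stocks for 4 receptor genes, by the interaction term of edgeR. Of 48 tested, 3 were higher (6.25%, against 4.29% of all genes tested) and 1 was lower (2.08%, against 11.9%). The Act88F-GS change minus the w1118 change was 4.65 for Gr59e (adjusted p = 0.0350), 4.46 for Gr63a (adjusted p = 0.0445), 3.71 for Gr94a (adjusted p = 0.0447) and -0.46 for Ir62a (adjusted p = 0.00817). Of 21 alternatives, Gr63a lost its call in 12, Gr94a in 11, Gr59e in 10 and Ir62a in 2. Reads of Ir62a cannot be told apart from unspliced RNA of Iml1.

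Between elav-GS heads and the mean of both thorax stocks the response differed for 10 receptor genes, in a test chosen after the values had been seen. Of 64 tested, 9 were higher (14.1%, against 5.98% of all genes tested) and 1 was lower (1.56%, against 10.4%). The head change minus the thorax change was 5.18 for Ir52b (edgeR adjusted p = 0.00617), 3.46 for Ir52a (0.0161), 3.44 for Ir52c (0.0141), 2.42 for Ir94c (0.00868), 2.63 for Ir92a (0.0350), 2.34 for Gr89a (0.0268), 1.68 for Ir31a (0.0498), 1.52 for Gr5a (0.0454) and 1.39 for Ir40a (0.0278). For Gr98a, which moved with testis RNA in head controls 1 and 2, it was -4.01 (adjusted p = 0.0234). Of 26 alternatives, Gr5a and Ir31a lost their call in 17 each, Ir92a in 15, Gr98a in 8, Ir40a in 7, Gr89a in 3, Ir52a in 2, Ir52c and Ir94c in 1 each, and Ir52b in none. In the head controls Ir52b was read once and Ir52a 3 times in all.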

How the results depend on the processing

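In w1118 thoraces 0 receptor genes rose or fell under every alternative run, the replicate block included. Elsewhere counts moved. In Act88F-GS thoraces the rises were 5 with total counts, 5 with 18 samples in 1 fit, 1 with voom, 0 with the unequal-variance test and 0 to 3 on leaving out 1 sample. In heads they were 3 without a filter, 4 with a mean of 10 counts, 0 with the unequal-variance test, 23 with 18 samples, 4 with the replicate block and 0 to 20 on leaving out 1 sample; the 1 fall was 0 with total counts, no filter, a mean of 10 counts, voom, the unequal-variance test and the replicate block, 2 with 18 samples and 0 to 1 on leaving out 1 sample. The stock interaction had 0 higher calls with voom, 0 to 2 on leaving out 1 sample, and 0 lower calls with total counts or 18 samples. Head against thorax controls had 34 higher calls without a filter, 27 with 18 samples, 32 in RU486 samples and 9 against w1118 alone, where 13 were lower. Act88F-GS against w1118 had 2 higher and 11 lower calls with the replicate block, 9 higher in RU486 samples, 11 lower with voom, and 1 to 3 higher and 11 to 18 lower on leaving out 1 sample. The head minus thorax response had 24 higher calls with DESeq2, 5 with the replicate block and 4 to 13 on leaving out 1 sample, and 0 lower with voom or the block and 0 to 2 on leaving out 1 sample.

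Signs turned as follows. Ir25a was -0.12 in Act88F-GS thoraces and -0.31 in the interaction without Act88F-GS RU486 sample 3, and -0.067 in the interaction with voom. Ir76b was -0.0015 in w1118 thoraces without control 1. Between head and thorax controls Ir25a was -0.084 with upper quartile scaling, -0.077 with DESeq2 size factors and -0.081 with DESeq2, -0.057 with voom, -0.24 against w1118 alone, and -0.053, -0.043 and -0.032 without head control 2, head control 3 or Act88F-GS control 3. Against w1118 alone Ir8a was -0.38, Ir76b -0.38 and Ir21a -0.30. In RU486 samples Gr89a was 0.0022, Ir52a 0.28, Ir52b 0.18, Ir52c 0.62 and Ir94c 0.047 between head and thorax, and Ir25a 0.0055, Ir8a 0.46 and Gr94a 1.15 between stocks. On leaving out 1 sample Ir25a spanned -0.12 to 1.08 in Act88F-GS thoraces, -0.31 to 0.91 in the interaction and -0.053 to 0.25 between head and thorax controls, and Ir76b -0.0015 to 0.22 in w1118 thoraces. The cause was not tested. With a minimum of 0.5 CPM, 24 and 16 genes were detected in RU486 and control heads, 11 and 7 in Act88F-GS and 14 and 17 in w1118 thoraces, and with 0.05 CPM 46 in RU486 Act88F-GS thoraces. Scaling by total counts moved the median of all genes by 0.17 in Act88F-GS thoraces, 0.20 in the interaction and -0.23 between stocks, and upper quartile and DESeq2 scaling by -0.13 and -0.12 between head and thorax. Of 100 results on single genes, 85 kept their direction and 25 their call under every alternative.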
